A study of Mus musculus with 6 samples.

Results

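The EGR transcription factor genes Egr1, Egr2 and Egr3, the genes of their corepressors Nab1 and Nab2, and the early response genes Ier2, Ier3 and Nr4a1 were followed through the open chromatin around them. A peak of accessibility was counted to a gene when it overlapped the body of the gene, or lay within 50 kb of it with no other protein-coding gene closer. Of the 182166 consensus peaks of the study, 93 met this rule: 8 at Egr1, 13 at Egr2, 8 at Egr3, 16 at Nab1, 8 at Nab2, 8 at Ier2, 17 at Ier3 and 15 at Nr4a1. The assay was ATAC-seq, which reads out where a transposase can reach the DNA. The cells were granulocyte-monocyte progenitors (GMPs). These bone marrow cells, the precursors of neutrophils and monocytes, were sorted by flow cytometry from untreated C57BL/6 mice. In GFI1-KI mice (GFI1 KI /KI) human GFI1 takes the place of mouse Gfi1, and in GFI1-KD mice (GFI1 KD /KD) human GFI1 is made at 10-20%, so both genotypes lack the mouse gene. Each genotype had 3 libraries, called KI1 to KI3 and KD1 to KD3. Per the labels these were separate samples, without a statement that each came from its own animal, so p-values measure the spread between libraries, which may be technical.

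The EGR proteins are zinc-finger activators whose genes are switched on within minutes when growth factor or cytokine receptors signal through the ERK cascade, by way of serum response factor and its ETS partners at CArG boxes. NAB1 and NAB2 bind the EGR proteins and turn them into repressors, and NAB genes are themselves EGR targets, which makes a feedback loop. In myeloid progenitors EGR1 and EGR2 with NAB2 are known for promoting the macrophage fate and GFI1 for promoting the neutrophil fate, each side repressing genes of the other. IER2 and IER3 are small proteins of the same immediate early response, IER3 being linked to survival signalling, and NR4A1 is an orphan nuclear receptor needed for a class of monocytes.

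Each GFI1-KI library held 19408373 to 27741446 peak reads, and each GFI1-KD library 16022763 to 19857646. On the first principal component KI1 was the GFI1-KI library closest to GFI1-KD (-47.8, against -111.3 and -106.7 for KI2 and KI3 and 79.6 to 99.3 for GFI1-KD). Of 11 GMP markers, 10 had a peak within 1 kb of a gene end averaging 100 normalized reads or more, Mpo, Cebpa and Kit among them, and Fcgr3 had none. Summed over markers, the highest such peaks held 7977.9 to 8534.6 normalized reads in KI1 to KI3, against 7487.7 to 7978.8 in KD1 to KD3. Mature macrophage markers overlapped between the genotypes (620.7 to 701.5 and 608.4 to 711.5), with no such peak at Marco or Timd4. Late neutrophil markers held 1387.2 to 1611.2 and 1608.1 to 1806.1 (8 of 9 genes with a peak, none at Mmp9). Erythroid markers (4 of 6, none at Gata1 or Hba-a1) held 1058.0 to 1159.6 and 902.2 to 960.9, T cell markers (4 of 6, none at Cd3g or Cd8a) 1049.4 to 1070.1 and 854.0 to 989.0, and B cell markers (5 of 6, none at Ms4a1) 707.6 to 727.5 and 647.5 to 754.3. An average of 100 or more was reached by 2 mature macrophage, 4 late neutrophil, 2 erythroid, 1 T cell and 3 B cell markers. Klf1 (mean 677.8) made up most of the erythroid sum and Cd3d (874.5) most of the T cell sum. The part of these levels in the results below was not tested. In sorted but bulk material, a site open in fewer cells and a site less open in each cell cannot be told apart.

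Promoter sequences from RefSeq (GRCm38.p6) were given for Egr2, Nab1, Nab2, Ier3 and Nr4a1. The 250 bases before the start are shown for 3 of them, because these overlap consensus peaks and also carry, in capitals, letters that match sites known from this response, read on either strand. The Egr2 window (chr10:67537619-67537868, plus strand) has a CArG box from -72 to -63, counted from the base before the start as -1, and the letters TGACG, the core of the cAMP response element, at -111 to -107 and -55 to -51. The Nab1 window (chr1:52500449-52500698, minus strand) has the EGR site GCGTGGGCG at -141 to -133 and -109 to -101, the variant GCGGGGGCG at -38 to -30 and 1 TGACG match. The Nr4a1 window (chr15:101266596-101266845, plus strand) has 1 GCGGGGGCG match at -60 to -52 and 4 of TGACG.
Egr2: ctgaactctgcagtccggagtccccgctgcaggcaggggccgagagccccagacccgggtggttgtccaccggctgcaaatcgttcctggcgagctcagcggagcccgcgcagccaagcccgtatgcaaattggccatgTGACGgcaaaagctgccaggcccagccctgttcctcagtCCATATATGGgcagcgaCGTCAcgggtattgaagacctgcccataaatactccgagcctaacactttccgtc
Nab1: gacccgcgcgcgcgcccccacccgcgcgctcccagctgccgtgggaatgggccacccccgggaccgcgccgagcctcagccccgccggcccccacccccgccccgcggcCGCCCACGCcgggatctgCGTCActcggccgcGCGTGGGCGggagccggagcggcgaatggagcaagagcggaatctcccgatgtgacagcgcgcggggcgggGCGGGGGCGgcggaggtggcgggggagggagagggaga
Nr4a1: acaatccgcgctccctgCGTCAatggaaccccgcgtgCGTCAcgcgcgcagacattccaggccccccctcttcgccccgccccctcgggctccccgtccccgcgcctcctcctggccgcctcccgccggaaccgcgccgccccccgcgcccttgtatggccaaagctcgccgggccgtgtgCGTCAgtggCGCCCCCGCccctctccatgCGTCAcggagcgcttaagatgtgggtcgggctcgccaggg
Among 27025 promoter windows of the same length searched on both strands, 0.54% held GCGTGGGCG, 2.56% GCGGGGGCG, 1.4% a CArG box and 17.9% TGACG. Neither the NR4A site AAAGGTCA (1.31% of windows) nor the GFI1 core AAATCA (12.7%) was matched in the windows of the 5 genes. A match is a description of letters and not evidence of binding.

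Around the 8 genes, called differences between GFI1-KD and GFI1-KI went both ways. Summed over all peaks of a gene on the deposited scaling, values were lower in every GFI1-KD library at Egr1 (3840.6 to 4168.5 normalized reads against 3037.3 to 3705.4), Ier2 (4261.7 to 4320.3 against 3369.3 to 3993.2), Egr3, Nab1 and Nab2. The sums were higher at Egr2 (2071.2 to 2305.9 against 2346.5 to 2497.0) and overlapped at Ier3 and Nr4a1. By the median-of-ratios size factors, KD1 would overlap the GFI1-KI libraries at Egr1, Egr3 and Nab2. The sums were not tested, and the share of all genes without overlap was not counted. Of the 93 peaks, 90 reached the mean of 10 normalized reads needed for the test (the other 3 are 2 peaks before Egr2 and 1 near Nab1). In limma's moderated test, adjusted over all 170733 tested peaks, 7 of the 90 were higher in GFI1-KD (7.78%, against 4.99% of all tested peaks) and 13 lower (14.4%, against 5.48%), while 70 were not called. Together 22.2% were called, against 10.5% of all tested peaks. The members were the more deeply covered, with a median mean of 96.5 normalized reads against 44.7 over all tested peaks. All 3 GFI1-KD libraries exceeded all 3 GFI1-KI libraries in 14 peaks and fell short of them in 28, which makes 42 of 90 without overlap, against 28.8% of all tested peaks (19519 above and 29656 below). On the log2(value + 1) scale of the fit, 6 called peaks differed by at least 2-fold, all lower in GFI1-KD: 2 each near Nab1 and Nr4a1 and 1 each near Egr1 and Ier3. The share of all tested peaks with such calls was not counted. Of these 6, all but the Ier3 peak were thinly covered, averaging 11.0 to 21.2 normalized reads. Which peaks reach 2-fold depends on the scale of the fit and on the library factors. The called Egr2 peak at 46.7 kb had a log2 fold change of 0.98 in the main fit, 1.06 in edgeR and 1.07 in DESeq2. With median-of-ratios scaling in limma it was 1.03. For the Ier3 peak at 22.4 kb these values were 0.92, 1.01, 1.02 and 0.96. Of the falls, the Nab1 peak at 24.9 kb moved from -1.01 to -0.96 in both tools and to -0.97 with median-of-ratios scaling. The Ier3 peak at 24.4 kb moved from -1.09 to -0.92 and -1.05. Egr2 was the gene with rises and no falls (4 and 0). Ier2 (0 and 3), Egr1 (0 and 2) and Nab1 (0 and 2) had falls and no rises, Ier3 (1 and 3), Nr4a1 (1 and 2) and Egr3 (1 and 1) had both, and Nab2 had neither. An unadjusted limma p under 0.05 was reached by 36 of the 90, against 43463 of all 170733 tested peaks. At this level Egr2 had 5 higher and 0 lower, Ier2 0 and 4, Egr1 0 and 4, Nab1 1 and 6, and Nab2 0 and 2. Where limma gave 0 for these genes, edgeR and DESeq2 also gave 0.

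**Figure D1:**
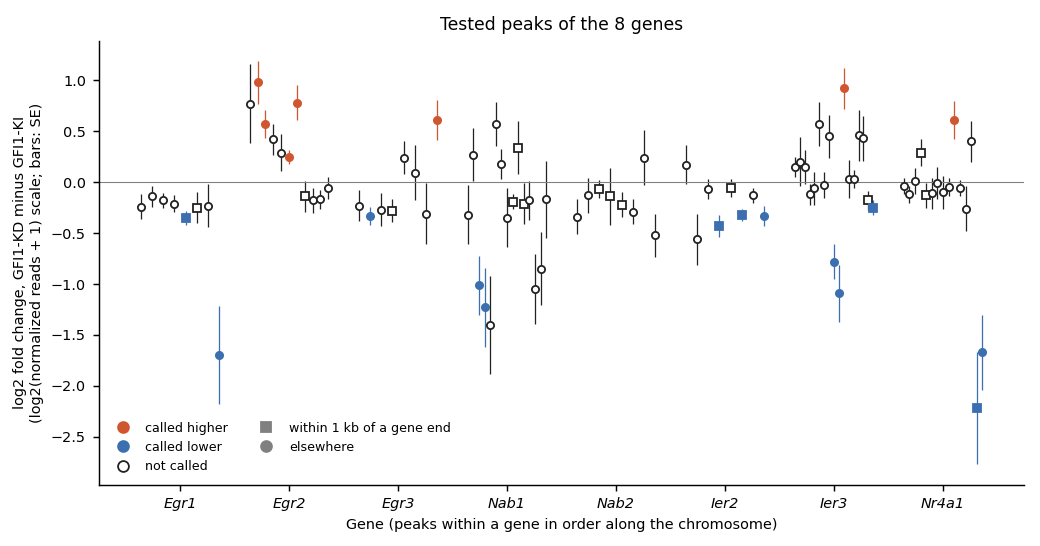
Log2 fold change with its standard error (y axis) of the 90 tested peaks, grouped by gene on the x axis and ordered along the chromosome within a gene. Orange points are called higher and blue points called lower in GFI1-KD (limma adjusted p under 0.05), open points are not called, and squares lie within 1 kb of a gene end. The 4 orange Egr2 points lie before the gene, and the lowest points are the pair past Nr4a1.

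With median-of-ratios scaling or equal totals the counts were 8 higher and 12 lower, although over all peaks these scalings moved the share of calls that were higher from 47.7% to 60.0% and 58.6%. The counts depended on which library was left out: 4 higher and 4 lower were called without KI2, 2 and 4 without KI3, 5 and 5 without KD2, 4 and 8 without KD3, 5 and 16 without KD1, and 6 and 14 without KI1, the library that stood apart. The share of all tested peaks called moved as well, from 10.5% to 4.24% without KI2, 4.1% without KI3, 7.28% without KD2, 6.33% without KD3, 9.97% without KD1 and 13.0% without KI1.

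At Egr2, whose product drives macrophage genes in progenitors, 4 peaks before the gene rose in GFI1-KD, and no peak inside it was called. Egr2 lies on the plus strand of chromosome 10 from 67534469 to 67542188, and 9 of its 13 peaks lie between 15.3 and 49.8 kb before it. The strongest of them, from 67503370 to 67504283 and 30.2 kb before the gene, held 812.9, 725.7 and 766.5 normalized reads in KI1 to KI3 and 893.4, 891.1 and 960.2 in KD1 to KD3. It rose by 0.25 ± 0.07 on the log2(value + 1) scale (SE, limma adjusted p = 0.0251), with every GFI1-KD value above every GFI1-KI value. Nearer to the gene, the peak from 67518643 to 67519123 held 140.7, 86.8 and 77.0 against 177.6, 175.3 and 155.2 normalized reads, KI1 being the nearest to GFI1-KD. Its log2 fold change was 0.78 ± 0.17 (limma adjusted p = 0.00603). Farther out, the peak from 67489890 to 67490255 held 100.2, 108.7 and 94.4 against 132.7, 165.4 and 156.3 (0.57 ± 0.14, adjusted p = 0.0111). The outermost called peak, from 67487561 to 67487787 and 46.7 kb before the gene, also separated the genotypes, with 27.0, 27.2 and 21.9 against 48.1, 61.7 and 44.4 normalized reads (0.98 ± 0.21, adjusted p = 0.00523). A further peak between them, 43.4 kb out, held 87.1 ± 9.15 against 116.4 ± 6.06 (SD, n = 3 per genotype) and missed the threshold (limma adjusted p = 0.0732). The next protein-coding gene to the 46.7 kb peak, Ado, is 56.7 kb away, on the far side of Egr2.

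The 50 kb limit cuts through this region. Just inside it, the peak at 49.8 kb held 24.8, 5.26 and 16.6 against 17.1, 30.9 and 23.3 and was not called. Just outside it, a peak at 50.1 kb had too few reads for the test (1.75 to 6.76 normalized reads in GFI1-KI libraries, 10.7 to 17.3 in GFI1-KD libraries). The next, at 50.6 kb (67483360 to 67483829), which is not among the 93, held 38.3, 27.2 and 40.8 against 74.9, 93.8 and 77.6 normalized reads, a log2 fold change of 1.20 ± 0.20 (limma adjusted p = 0.00049). Both are named for their place next to the limit, after their values were seen.

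Inside Egr2, none of the 4 peaks was called. The peak over 1 of its starts, from 67537056 to 67537628, held 458.6 ± 5.70 against 408.7 ± 21.4 normalized reads (SD, n = 3; limma adjusted p = 0.234), and its genotypes did not overlap. The neighbouring peak, which covers the CArG box shown above and 3 further starts, held 221.0 ± 10.3 against 212.8 ± 17.4 (adjusted p = 0.804), with the genotypes overlapping. Just before another of its starts a peak held 101.9 ± 2.02 against 92.9 ± 11.3 (adjusted p = 0.607). Summed, the 9 peaks before the gene held 1095.6 to 1286.9 normalized reads in KI1 to KI3, against 1459.5 to 1570.0 in KD1 to KD3, and the 4 inside it 975.5 to 1019.0 and 887.0 to 926.9. The call at 30.2 kb was lost without KI2 (adjusted p = 0.174), KI3 (0.112) or KD3 (0.125), that at 44.2 kb without KI3 (0.0672), KD2 (0.0564) or KD3 (0.0523) and that at 15.3 kb without KI3 (0.0519). The call at 46.7 kb was kept in every alternative that tested the peak.

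**Figure D2:**
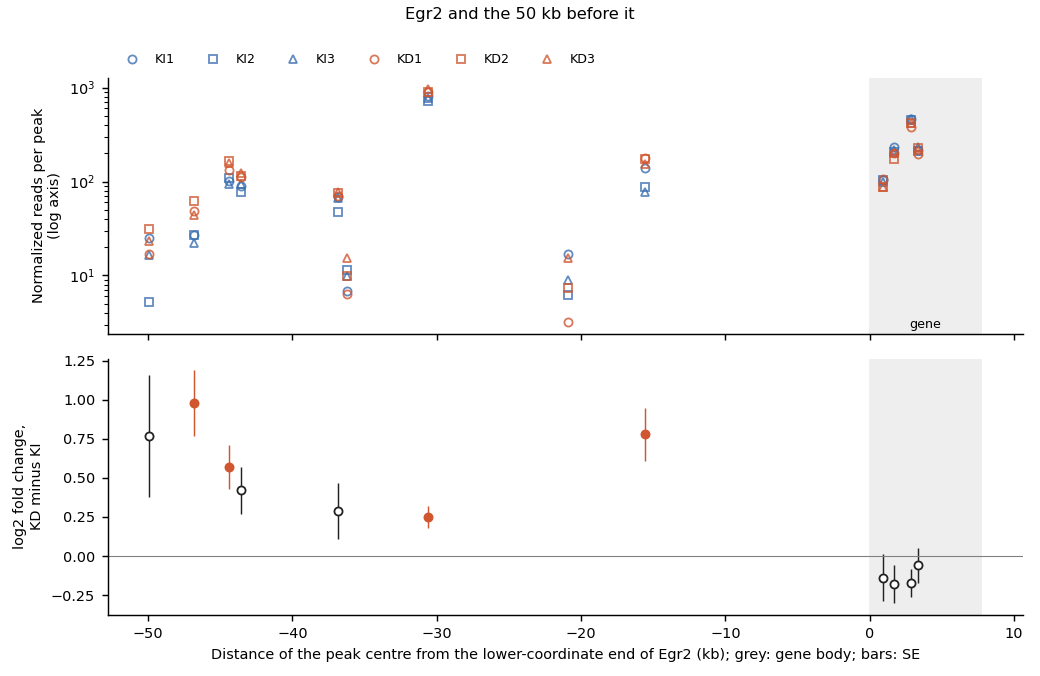
Egr2 peaks by distance of their centre from the lower-coordinate end of the gene (x axis, kb, gene body in grey): normalized reads per peak of each library on a log axis (upper panel) and log2 fold change with its standard error for the 11 tested peaks (lower panel, filled where called). The 4 called peaks lie between 15.3 and 46.7 kb before the gene, and the 4 peaks inside the gene have slightly negative fold changes that were not called.

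Egr1, the EGR gene with the strongest peak, fell at the gene itself, unlike the called peaks before Egr2. The peaks inside Egr2 also had negative log2 fold changes, though none was called. Its main peak, on chromosome 18 from 34860410 to 34861431 over the lower-coordinate end of the gene (34861207 to 34864956), held 1490.7, 1512.8 and 1675.0 normalized reads in KI1 to KI3 and 1364.2, 1118.2 and 1195.3 in KD1 to KD3. The genotypes did not overlap, and the peak fell by 0.35 ± 0.07 on the log2 scale (log2 fold change -0.35, limma adjusted p = 0.00259). This call was kept in every alternative. The other 5 peaks within 6.4 kb of the gene had log2 fold changes between -0.25 and -0.14 and none was called. Among them the peak at 4.6 kb held 801.1 ± 24.2 against 706.8 ± 28.3 (adjusted p = 0.109). The other called peak, 15.5 kb past the high-coordinate end, is thinly covered, with 12, 44 and 40 reads in GFI1-KI and 17, 6 and 2 in GFI1-KD. Its genotypes overlap, since KI1 lies below KD1, and its call (-1.70 ± 0.48, limma adjusted p = 0.0265) was lost without KI2 (0.165), KI3 (0.12), KD2 (0.0691) or KD3 (0.141), in DESeq2 (0.325) and with robust variance estimation (0.0823).

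Egr3 had 1 peak in each direction. The strongest peak of the locus, on chromosome 14 from 70074448 to 70075278 and 2.0 kb below the gene (70077317 to 70082613), held 698.1, 648.6 and 707.6 in GFI1-KI and 582.1, 466.5 and 589.9 normalized reads in GFI1-KD. It fell without overlap (log2 fold change -0.33 ± 0.09, limma adjusted p = 0.0196), a call lost without KI3 (0.109) or KD2 (0.0771). The peak 0.3 kb from the gene end, at 257.4 ± 7.92 against 212.2 ± 17.7 (SD, n = 3), missed the threshold (adjusted p = 0.109). Beyond the other end of the gene, a peak 8.3 kb above the gene held 45.0, 49.1 and 42.3 against 94.2, 62.9 and 57.7, with KD1 the highest (0.61 ± 0.20, adjusted p = 0.0486). That call was lost without any 1 of KI1 (0.0666), KI2 (0.0983), KI3 (0.167), KD1 (0.225) or KD2 (0.0689), in DESeq2 (0.069) and without a filter on low values (0.0522). Bin3 is 8.8 kb from this peak, nearly as close as Egr3.

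Neither corepressor gene had a called peak over its start. Nab1, on the minus strand of chromosome 1 from 52455849 to 52500712, had its strongest peak over the start (52499708 to 52501051), which covers the EGR sites shown above. It held 757.8, 743.3 and 732.5 normalized reads in GFI1-KI and 666.6, 617.1 and 680.8 in GFI1-KD. The genotypes did not overlap, but the peak missed the threshold (log2 fold change -0.19 ± 0.07, limma adjusted p = 0.11). The called Nab1 peaks lie past its other end and hold few reads. The peak 24.9 kb away held 28.3 ± 2.21 against 14.2 ± 5.15 (SD, n = 3) without overlap (-1.01 ± 0.29, limma adjusted p = 0.0297), and the peak 20.2 kb away 18.0, 20.2 and 11.3 against 7.49, 4.94 and 6.65 (-1.23 ± 0.39, adjusted p = 0.0446). The first call was lost in DESeq2 (0.15) and without KI2 (0.113), KI3 (0.132) or KD2 (0.121), and the second without any library but KD1 (0.0728 to 0.237). DESeq2 gave no adjusted p for the peak at 20.2 kb. Inside the gene, a peak from 52470259 to 52470514 held 28.9 ± 5.36 against 43.4 ± 6.62 and was not called (0.57 ± 0.22, adjusted p = 0.0965).

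Nab2, the NAB gene tied to the macrophage programme, had no called peak among its 8, which cover chromosome 10 between 127662104 and 127668964. The peak over its start held 569.7, 559.2 and 602.6 normalized reads in GFI1-KI and 605.6, 477.6 and 568.8 in GFI1-KD (log2 fold change -0.07 ± 0.09, limma adjusted p = 0.652). KD1 was the highest and KD2 the lowest of the 6 libraries. The 8 log2 fold changes ran from -0.52 to 0.24, the lowest at a peak 2.1 kb before the gene with 46.6 ± 3.11 against 32.6 ± 5.70 (adjusted p = 0.115). All 8 peaks lie within 7.8 kb of Stat6, the neighbouring gene.

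Ier2 held the most reads per kb of peak of the 8 genes, and 3 of its 8 peaks fell. Its 8 log2 fold changes ran from -0.56 to 0.17. Its main peak, on chromosome 8 from 84662263 to 84663081 over the high-coordinate end of the gene (84661331 to 84662852), held 1514.4, 1447.1 and 1505.8 normalized reads in GFI1-KI and 1213.4, 1189.7 and 1174.2 in GFI1-KD. The spread was small beside the gap, and the peak fell by 0.32 ± 0.06 (log2 fold change -0.32, limma adjusted p = 0.00105), a call kept in every alternative. A peak 0.9 kb below the gene held 516.8, 575.0 and 586.0 against 511.5, 343.1 and 402.5, with KD1 close to KI1 (-0.43 ± 0.11, adjusted p = 0.0145). The remaining called peak, 2.1 kb above the gene, held 403.2 ± 32.5 against 322.4 ± 38.4 (SD, n = 3; -0.33 ± 0.10, adjusted p = 0.0482). The second call was lost without KI2 (0.0726), KI3 (0.0808), KD2 (0.0782) or KD3 (0.0657), and the last with median-of-ratios scaling (0.0662), equal totals (0.0557), DESeq2 (0.118) and without any library but KI1 or KD3 (0.0602 to 0.218).

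At Ier3, on the plus strand of chromosome 17 from 35821713 to 35822911, a short stretch before the gene changed in both directions. The peaks at 26.1 and 24.4 kb fell and the next, at 22.4 kb, rose. The first (35795136 to 35795657) held 79.9, 85.0 and 90.6 normalized reads in GFI1-KI and 46.0, 54.3 and 47.7 in GFI1-KD (-0.78 ± 0.17, limma adjusted p = 0.00498). The second (35796891 to 35797313) held 57.4, 79.8 and 62.7 against 56.7, 18.5 and 26.6, so that KD1 stood almost at the level of KI1 (-1.09 ± 0.28, adjusted p = 0.0138). The third (35798975 to 35799317) held 42.8, 34.2 and 41.5 against 101.6, 58.0 and 72.1, with KD1 the highest (0.92 ± 0.20, adjusted p = 0.00605). The calls at 26.1 and 22.4 kb were kept in every alternative, and that at 24.4 kb was lost without KI2 (0.0828), KD2 (0.0958) or KD3 (0.0676). Flot1 is 27.7, 26.0 and 24.0 kb from the peaks at 26.1, 24.4 and 22.4 kb, nearly as close as Ier3.

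The 2 strongest Ier3 peaks lie at the gene itself. The one over the start (35821103 to 35822001) held 1013.3, 1072.0 and 1021.7 against 1096.7, 783.7 and 879.3, with KD1 above every GFI1-KI library, and was not called (-0.18 ± 0.09, limma adjusted p = 0.189; called without KD1, 0.00604). The one over the other end (35822886 to 35823849), which also overlaps Flot1, held 1155.2, 1266.5 and 1234.7 against 1119.2, 938.0 and 1016.8 (-0.25 ± 0.07, adjusted p = 0.0219). Its call was lost in DESeq2 (0.109) and without KI2 (0.14), KI3 (0.114), KD2 (0.0673) or KD3 (0.0784).

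Nr4a1, on the plus strand of chromosome 15 from 101253902 to 101274795, had 3 called peaks, of which the pair past its end held few reads, and no call at its strong peaks. Its strongest peak, 7.0 kb before the gene, held 1011.1 ± 31.4 against 935.2 ± 111.7 normalized reads (limma adjusted p = 0.348), and the peak over the start shown above, from 101266189 to 101267124, held 608.0, 624.9 and 594.3 against 629.2, 556.6 and 572.1 (-0.06 ± 0.08, adjusted p = 0.70). Neither separated the genotypes. Just before that start, a peak from 101265915 to 101266124 held 45.0 ± 6.41 against 69.7 ± 13.5 (SD, n = 3) without overlap (0.61 ± 0.19, adjusted p = 0.044), a call lost in DESeq2 (0.0708) and without KI2 (0.0784), KI3 (0.21), KD1 (0.165) or KD3 (0.094).

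Past the end of Nr4a1 an adjoining pair of peaks fell. The first, 0.7 kb out, held 5, 36 and 28 reads in KI1 to KI3 and 3, 2 and 2 in KD1 to KD3 (log2 fold change of normalized reads -2.22 ± 0.55, limma adjusted p = 0.0115). The second, 1.0 kb out, held 13, 32 and 46 against 8, 7 and 4 reads (-1.67 ± 0.37, adjusted p = 0.00604). In both KI1 lay near the GFI1-KD libraries, and without KI2 or KI3 neither was called (0.181 and 0.113 for the first, 0.0508 and 0.0846 for the second). DESeq2 gave no adjusted p for either peak. The GFI1-KD values of the first lie at or under the 3 reads that a count of 0 allows.

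**Figure D3:**
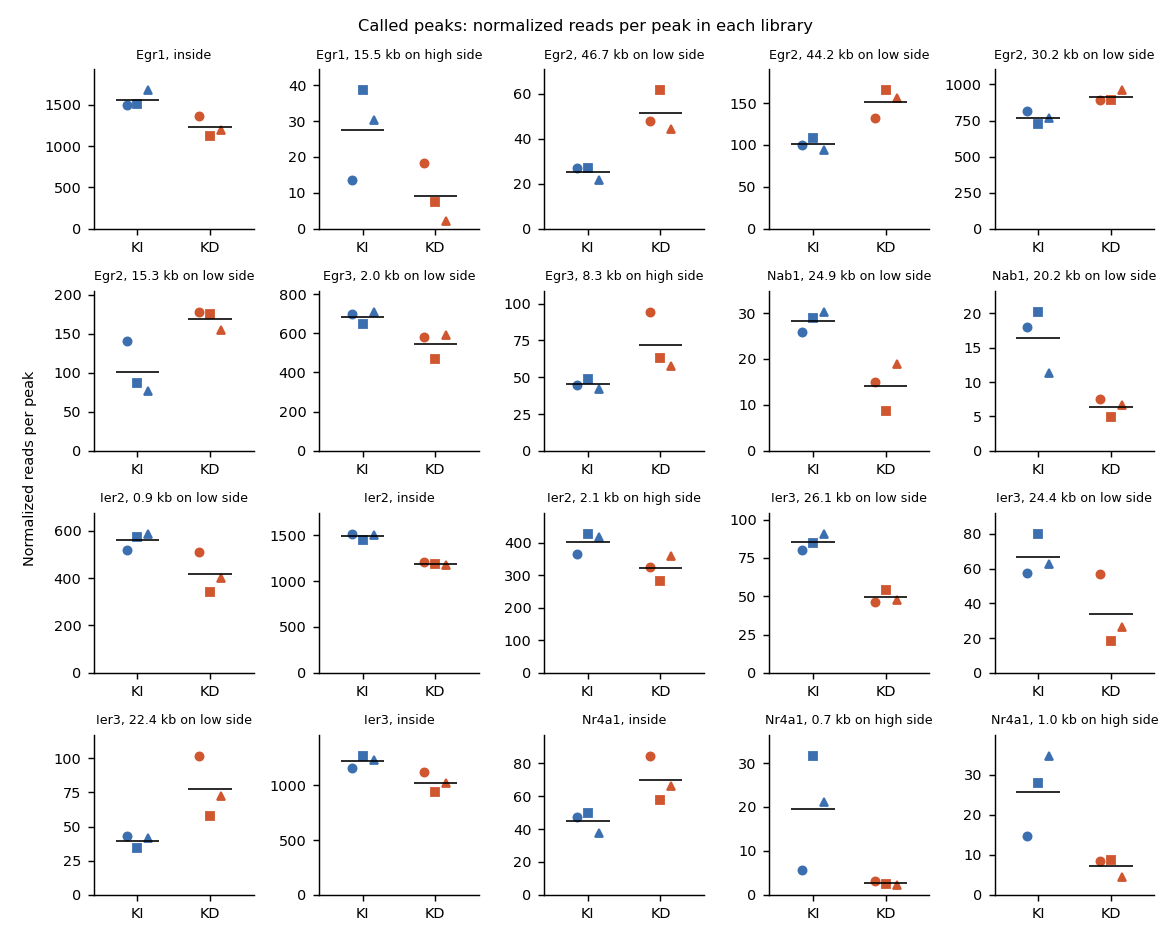
Normalized reads per peak in each library (y axis, from 0, its own range in each panel) for the 20 called peaks, GFI1-KI in blue and GFI1-KD in orange, with circles, squares and triangles for libraries 1, 2 and 3 and a line at the mean. Panel titles give the gene and the distance from it on its low- or high-coordinate side. In 19 of the 20 panels the genotypes do not overlap, the exception being the Egr1 peak at 15.5 kb.

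Peaks at gene ends were called in 1 direction among the members, and peaks elsewhere in both. The difference between these classes was not tested. Of the 18 tested member peaks within 1 kb of a gene end, 5 were lower (27.8%, against 7.11% of the 27098 such peaks in all) and 0 higher (against 1.73%) in GFI1-KD, with a median log2 fold change of -0.20 against -0.10. In 8 of the 18 the GFI1-KD values lay all below the GFI1-KI values and in 0 all above, against 30.3% of all gene-end peaks without overlap (6691 below and 1522 above). At an unadjusted p under 0.05, limma gave 1 higher and 8 lower of the 18, against 6519 of the 27098 in either direction. By adjusted p edgeR gave 0 and 5 and DESeq2 0 and 3. Over all tested peaks edgeR called 12.6% and DESeq2 6.34%, and their shares over gene-end peaks were not counted. Gene-end peaks with a mean of 250 or more, a class to which the main peaks of Egr1, Ier2 and Ier3 belong, were lower in 1374 and higher in 111 of 9176 peaks, with a median of -0.13. Of the 72 member peaks elsewhere, 7 were higher (9.72%, against 5.61%) and 8 lower (11.1%, against 5.17%), with a median of -0.09 against -0.04. In 14 of the 72 all GFI1-KD values lay above all GFI1-KI values and in 20 below, against 28.5% of all such peaks without overlap (17997 above and 22965 below, of 143635). By the median, both classes leaned to lower values among the members, as they did over all peaks on the deposited scaling. By calls, peaks elsewhere leaned to higher values over all peaks (5.61% higher and 5.17% lower). The median of all tested peaks was -0.053 on the deposited scaling, -0.008 with median-of-ratios scaling and -0.01 with equal totals. The share of all reads that fell in gene-end peaks ran from 38.7% to 39.7% in the GFI1-KI libraries, against 37.0% to 37.4% in the GFI1-KD libraries, and its part in the falls at Egr1, Ier2 and Ier3 was not tested.

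A share within a library does not depend on how libraries are scaled. The peaks inside Egr2 or within 1 kb of it took 44.2%, 47.1% and 46.5% of the reads counted to Egr2 in KI1 to KI3 and 37.8%, 37.3% and 37.1% in KD1 to KD3. This was the widest gap between genotypes among the 8 genes. The share was also lower in every GFI1-KD library at Egr1 (41.3% to 43.8% against 39.8% to 40.5%), Ier2 (59.2% to 60.9% against 57.6% to 58.9%) and Ier3 (50.5% to 53.7% against 47.3% to 49.7%). At Nr4a1 it was slightly higher, at 50.9% to 51.7% against 52.4% to 52.6%. At Nab1 (77.7% to 83.2% against 83.1% to 84.2%) and Nab2 (77.1% to 79.3% against 78.8% to 80.8%) the ranges overlapped, and at Egr3 they met (24.9% to 26.5% against 26.5% to 28.4%). These shares were chosen after the peak values were seen and are given as a description.

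**Figure D4:**
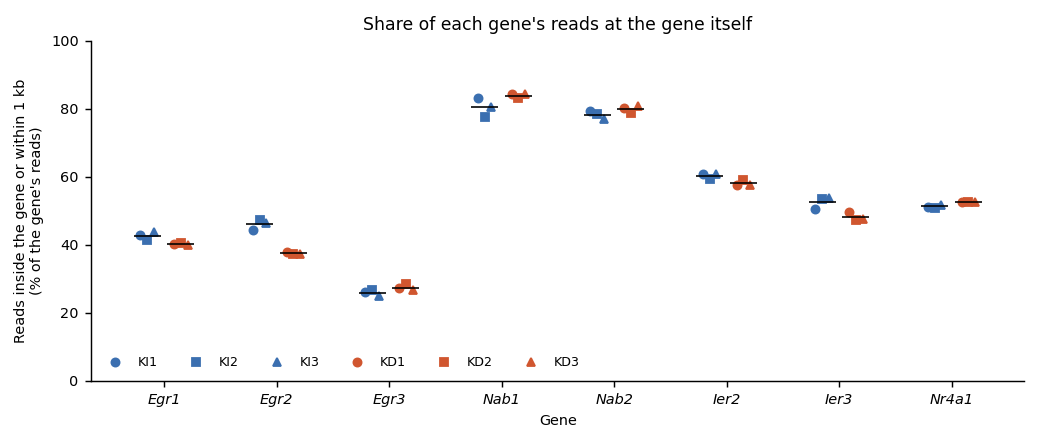
Share of each gene's normalized reads that lay inside the gene or within 1 kb of it (y axis, percent) in each library, GFI1-KI in blue and GFI1-KD in orange, with circles, squares and triangles for libraries 1, 2 and 3 and a line at the mean. Egr2 shows the widest gap, with 37.1% to 37.8% in the GFI1-KD libraries against 44.2% to 47.1% in the GFI1-KI libraries.

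Per kb of peak, Ier2 and Egr1 were the most open of the 8 and Nab1 the least. Summed over its peaks, Ier2 held 1415.9 ± 10.3 normalized reads per kb in the GFI1-KI libraries, against 1212.1 ± 102.8 in the GFI1-KD libraries (SD, n = 3), and Egr1 1147.5 ± 48.5 and 963.2 ± 97.2. Next came Nr4a1 at 692.3 ± 31.7 and 667.7 ± 41.3 and Ier3 at 587.0 ± 12.4 and 551.4 ± 56.0. In GFI1-KI, Nab2 (498.5 ± 13.7) and Egr3 (497.9 ± 17.8) could not be ordered, and Egr2 followed at 444.5 ± 24.1. Nab1 was the lowest at 252.0 ± 11.2. In GFI1-KD, Egr2 stood at 495.0 ± 15.5, above Nab2 at 443.5 ± 33.0 and Egr3 at 430.7 ± 48.5, though KD1 gave Nab2 and Egr2 nearly the same level (478.3 and 478.4). Egr2 was thus the gene of the 8 whose mean level was higher in GFI1-KD.

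Other genes of the same response were counted in the same fit. Of 34 further early response genes, 33 had a tested peak, and of their 472 peaks 38 were higher, 32 lower and 402 not called (14.8% called, against 10.5% of all tested peaks, of which 4.99% were higher and 5.48% lower; median log2 fold change 0.02). By gene, 11 had only higher calls, 9 only lower, 7 both and 6 none. Dusp1, a phosphatase that ends MAP kinase signalling, had 7 of 17 peaks higher. The peak 1.0 kb from it held 154.3, 142.9 and 120.8 normalized reads in GFI1-KI and 240.7, 319.7 and 359.2 in GFI1-KD (1.12 ± 0.14, limma adjusted p = 4.14e-05). Zfp36l2, an RNA-binding protein that destabilizes transcripts, had 7 of 24 peaks lower. Its leading peak held 1686.1 ± 165.7 against 1194.0 ± 56.5 (-0.49 ± 0.07, adjusted p = 9.76e-05). Among the nearest relatives of the members, Egr4 had 0 of 4 peaks called by limma, edgeR or DESeq2 (1 at an unadjusted p under 0.05), Nr4a2 2 of 12 lower, Nr4a3 1 of 18 in each direction, and Ier5 2 of 19 higher.

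Upstream of these genes, the list of serum response factor, its ETS and actin-regulated partners and the ERK cascade had 242 tested peaks at 15 genes. Of these peaks 14 were higher, 9 lower and 219 without a call (9.5% called, median 0.02). This share is near the 10.5% of all tested peaks and is no result about these genes. Srf itself had 2 of 8 peaks higher. Elk3, an ETS partner of serum response factor, had 3 of 41 peaks higher, as many calls as Mrtfa (2 higher and 1 lower of 38). The leading Elk3 peak held 81.1, 55.2 and 74.0 against 129.5, 123.4 and 136.4 (0.90 ± 0.16, limma adjusted p = 0.00123).

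Across the 6 libraries, the genes whose summed peaks ran most like those of Egr2 were Ap1s3, Ptpro, Prg4, Nat8f2 and Dnajc10 (Pearson r on log2 sums of 0.988 to 0.995). Those most like Egr1 were Supt4a, Il4i1b, Kcnh6, Coq10b and L1cam (0.992 to 0.994). These are the highest of 10166 genes with at least 5 tested peaks, over only 6 libraries that share their depth and genotype, and are given as a description.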

How the data were processed

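The deposited table gives a signal for each consensus peak, which the authors scaled: the values show 1 factor per library. Columns named WT were taken as GFI1-KI of the same number, since the series title calls that genotype wildtype. The build was mm10, per the submitters' processing notes, which list, without roles, BWA, Trim Galore, MACS2, SAMtools, DiffBind, Picard, HOMER and ChIPseeker. Tool versions, peak merging, the origin of the factors and any transposase shift: not given in the sources used here. All values were whole multiples of 1 step per library (100% at a tolerance of 0.01 reads), so whole reads were recovered.

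Chromosome codes were read in alphabetical order: 16.0% of peaks on the codes concerned then lay within 1 kb of a protein-coding gene end, against 2.6% in numeric order. Gene bodies came from RefSeq (GRCm38.p6). All 8 member symbols matched, and 5 had a promoter entry. Peaks of mean 10 or more were tested (11433 were not) in R 4.3.3 by limma 3.58.1, using log2(value + 1), a mean-variance trend and no block for replicate number, two-sided, with Benjamini-Hochberg adjustment over all tested peaks. The fit was checked on simulated data. Peaks named with values are every called member peak, the peaks at RefSeq starts and the strongest of each gene. From each list the 2 genes with most calls are named, except 1 that is not reported here, and others were added after their values were seen. The members and lists were chosen with earlier results of these data known. Alternatives included edgeR 4.0.16 and DESeq2 1.42.0 on recovered reads. Tables were made with pandas 2.3.3 and numpy 2.4.6 in Python 3.11.15, and plots with matplotlib 3.10.9.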

Additional observations from a re-analysis of the deposited data

How the results depend on the processing

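The direction of all 20 called peaks was kept in every alternative that gave an adjusted p for the peak. In every such alternative 5 calls were kept: the main peaks of Egr1 and Ier2, the Egr2 peak at 46.7 kb and the Ier3 peaks at 26.1 and 22.4 kb. Of the counts, DESeq2 gave 10819 called peaks in all, 6 member peaks lower, 7 early response peaks lower, and 8 higher and 5 lower upstream. At an adjusted p under 0.01 these were 6896 in all, 3 member peaks higher and 4 lower, 17 early response peaks higher and 10 lower, and 5 upstream higher and 4 lower. With a mean of at least 50, where 15.3% of all tested peaks were called, 8 of 60 member peaks were lower and 8 upstream peaks higher. Counting peaks inside a gene alone left 1 member peak higher and 3 lower, and a limit of 20 kb left 3 higher. Leaving out 1 library gave 6996 to 22129 called peaks, 2 to 6 member peaks higher and 4 to 16 lower, 16 to 54 early response peaks higher and 7 to 40 lower, and 6 to 18 upstream peaks higher and 3 to 14 lower. The cause of these moves was not tested. Same-numbered libraries deviated together with correlations of -0.024, -0.038 and 0.056, only the third being the best of its library, so the numbers were not taken as pairs. With a replicate block 18940 peaks were called, 7 member peaks higher and 12 lower, the Nab1 peak at 20.2 kb being lost (adjusted p = 0.0532). Peaks with few reads, such as those past Nr4a1, Nab1 and Egr1, have the widest errors.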
